A study of Homo sapiens with 6 samples.

Results

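The genes described here carry the symbols of human translation initiation and elongation factors, and are called factor genes. Some encode proteins that are not themselves such factors, namely the eEF1A methyltransferases (EEF1AKMT1 to EEF1AKMT3), EIF4EBP1, EIF4EBP2, EIF4ENIF1, EIF4A3 and EEF1E1. They were chosen by symbol, as the protein-coding genes whose symbol starts with EIF or EEF. Left out by name were the eIF2 alpha kinases (EIF2AK1 to EIF2AK4), EEF2K, EEF2KMT and the selenocysteine elongation factor EEFSEC, which are 7 genes. This gave 60 genes of the 22718 in the table, of which 59 had enough counts to be tested. The exception was EIF3CL, with 0 to 3 counts per library. RNA was sequenced from cells labelled HT1197, an established line from a human bladder carcinoma, in 3 libraries of cells kept for 48 hours in panobinostat and 3 libraries of cells kept in vehicle. Panobinostat, an inhibitor of the histone deacetylases, was given at 2 times the IC50 of the line, and vehicle was 1% DMSO (a condition label calls these libraries untreated). Both arms were the same line, with no other agent labelled, from dishes seeded in triplicate. Which library came from which dish is not labelled, so each p-value reflects sample-to-sample spread, part of which may be technical.

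Translation of most mRNAs starts when the cap-binding complex eIF4F recruits the small ribosomal subunit. That subunit carries eIF3, eIF1, eIF1A, eIF5 and the ternary complex of eIF2, GTP and initiator tRNA. It scans to the start codon, where eIF5 and eIF5B help to release eIF2 and to join the large subunit, and the exchange factor eIF2B recharges eIF2 with GTP. In elongation, eEF1A brings aminoacyl-tRNA to the ribosome, the eEF1B subunits recharge eEF1A, and eEF2 moves the ribosome on by a codon. Many mRNAs of ribosomal proteins and elongation factors begin with a C followed by a run of pyrimidines, the 5' terminal oligopyrimidine tract through which mTORC1 signalling and LARP1 control their translation.

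The libraries held 13417898 to 18186087 counts, at which 3 counts stood for 0.165 to 0.224 CPM (counts scaled to library size). Spearman correlations over tested genes were 0.993 to 0.997 within an arm and 0.941 to 0.950 between arms. Library A stood apart from B and C in each arm. The chi-square per gene between the counts of library pairs was 8.08 (A and B) and 10.02 (A and C) against 2.67 (B and C) with panobinostat, and 10.7 and 8.5 against 3.21 with vehicle. The labelled tissue was checked against marker genes. Of 20 urothelial markers 11 had a row, 9 of them lay under 1 FPKM with vehicle, and UPK1B, FOXA1 and TP63 were at 0 FPKM in the vehicle mean. GATA3 averaged 9.15 FPKM with panobinostat and 10.6 FPKM with vehicle. The summed urothelial markers came to 11.7 to 15.5 FPKM with panobinostat and 11.0 to 15.3 FPKM with vehicle. All 15 markers of adrenergic neuroblasts had a row, 11 of them at 10 FPKM or more with panobinostat and 13 with vehicle, and their sum was 1674 to 1768 FPKM with panobinostat and 2063 to 2339 FPKM with vehicle. These values go against the bladder carcinoma label, and the samples are therefore called the libraries labelled HT1197. Summed markers of fibroblasts were 79.2 to 85.3 FPKM with panobinostat and 35.6 to 37.4 FPKM with vehicle. Those of leukocytes were at most 0.699 FPKM with panobinostat and 1.09 FPKM with vehicle, and those of endothelium at most 0.564 FPKM with panobinostat and 0.154 FPKM with vehicle. The part of these marker differences in the results was not tested. In bulk RNA, fewer cells of a type and less RNA per cell cannot be told apart.

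Of the 59 factor genes tested, 14 rose and 27 fell with panobinostat, and 18 did not pass the test. These counts include the genes named above as not themselves factors. Of those, EEF1AKMT1, EEF1AKMT3, EIF4EBP1, EIF4ENIF1, EIF4A3 and EEF1E1 fell, EIF4EBP2 rose and EEF1AKMT2 did not pass. One of the rises, EEF1G, reached the filter on low counts in the 3 panobinostat libraries and in 0 of the vehicle libraries, so it entered the test through the arm where it was high, and its call supports nothing. Without it 13 of 58 rose (22.4%) and 27 fell (46.6%). A gene passed edgeR's quasi-likelihood test when its p, adjusted over 16084 genes (Benjamini-Hochberg), was at most 0.05. Without library A in both arms the counts were again 14 higher and 27 lower, with EIF3I no longer called (-0.11, adjusted p = 0.0856) and EIF2S2 newly called (-0.20, adjusted p = 0.00588). Of the factor genes 23.7% rose and 45.8% fell, against 33.7% and 31.5% of all genes tested. Their median log2 fold change was -0.18, and 33 of them averaged 100 CPM or more. Among all 2472 genes of that level 22.7% rose and 48.1% fell, with a median of -0.17. The members' shares and median cover all 59, abundant or not, so they are not matched to these genes in level. Changes were small, from -0.94 (EIF4ENIF1) to 1.21 (EIF5A2), and EIF5A2 and EEF1G were the 2 members called at 2-fold or more. The arms did not overlap for 14 members that were higher and 26 that were lower, where 35.5% and 33.4% of all tested genes behaved so. At an adjusted p of 0.01 or less 9 members rose and 21 fell, against 28.5% and 26.1% of all genes. The calls that held in the same direction under each of 16 alternatives were 9 rises (EEF2, EIF2S3, EIF3E, EIF3H, EIF3L, EIF3M, EIF4E3, EIF4EBP2 and EIF5A2) and 15 falls (EEF1AKMT1, EEF1AKMT3, EIF2B1, EIF2B3, EIF2B4, EIF2B5, EIF2D, EIF3B, EIF4E2, EIF4EBP1, EIF4ENIF1, EIF4G1, EIF4G2, EIF5 and EIF5B).

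**Figure D1:**
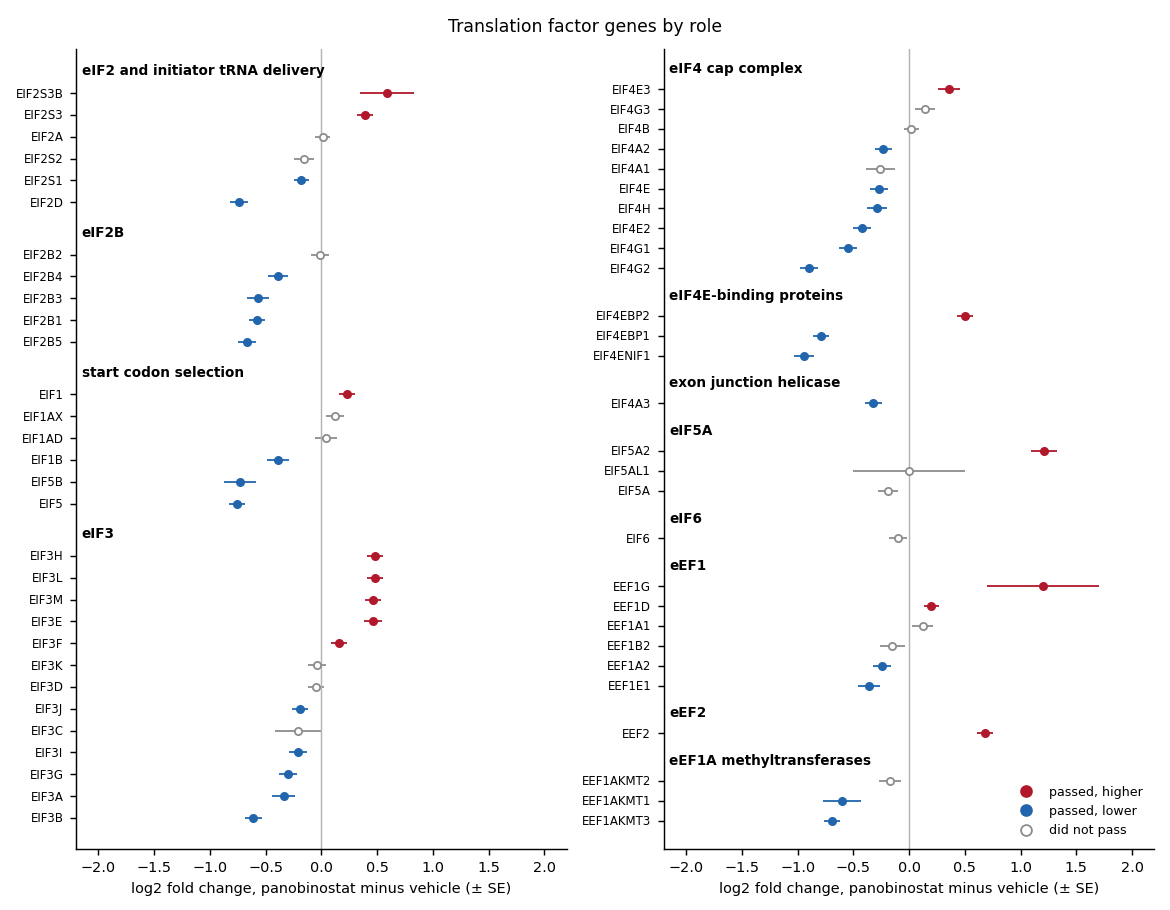
Log2 fold change (panobinostat minus vehicle, bars are SE from edgeR, 3 libraries per arm) of 58 tested factor genes, ordered within their role; filled red points rose, filled blue points fell and open grey points did not pass. Values run from -0.94 for EIF4ENIF1 to 1.21 for EIF5A2, and the eIF2B genes lie at or below 0. The Y-linked member is not drawn.

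By assigned counts, the level of the factor mRNAs was dominated by EEF2. Their summed share of all counts was 2.15, 2.15 and 2.18% in panobinostat libraries A, B and C, against 1.69, 1.73 and 1.70% in the vehicle libraries. EEF2 alone made up 1.10, 1.10 and 1.11% with panobinostat and 0.629, 0.655 and 0.636% with vehicle. Without EEF2 the share was 1.05, 1.06 and 1.06% with panobinostat and 1.06, 1.08 and 1.07% with vehicle, and the arms met. These shares are of column totals, without edgeR's TMM scaling, on which the fold changes rest. The TMM factors were 1.0282 to 1.0461 with panobinostat and 0.9562 to 0.9714 with vehicle. Applying them would lower the panobinostat shares beside the vehicle shares, so an unchanged total on that scale is not shown. Per length, EEF2 was followed by EEF1A2 (250.5 ± 26.0 FPKM with panobinostat and 275 ± 6.70 FPKM with vehicle, mean ± SD, n = 3 each), EIF3I (151 ± 10.3 FPKM with panobinostat and 162 ± 10.3 FPKM with vehicle) and EIF4EBP1 (147 ± 5.12 FPKM with panobinostat and 235 ± 14.6 FPKM with vehicle). With panobinostat EEF1A2 stood above EIF3I and EIF4EBP1, which did not differ beyond their spread, and with vehicle EEF1A2 led EIF4EBP1, which led EIF3I. At the low end, EIF5AL1, EEF1G, EIF3C and EIF2S3B averaged 0.144, 0.312, 1.05 and 1.39 FPKM with panobinostat and 0.143, 0.130, 1.12 and 0.861 FPKM with vehicle, and the reads of all 4 can be shared with other loci.

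**Figure D2:**
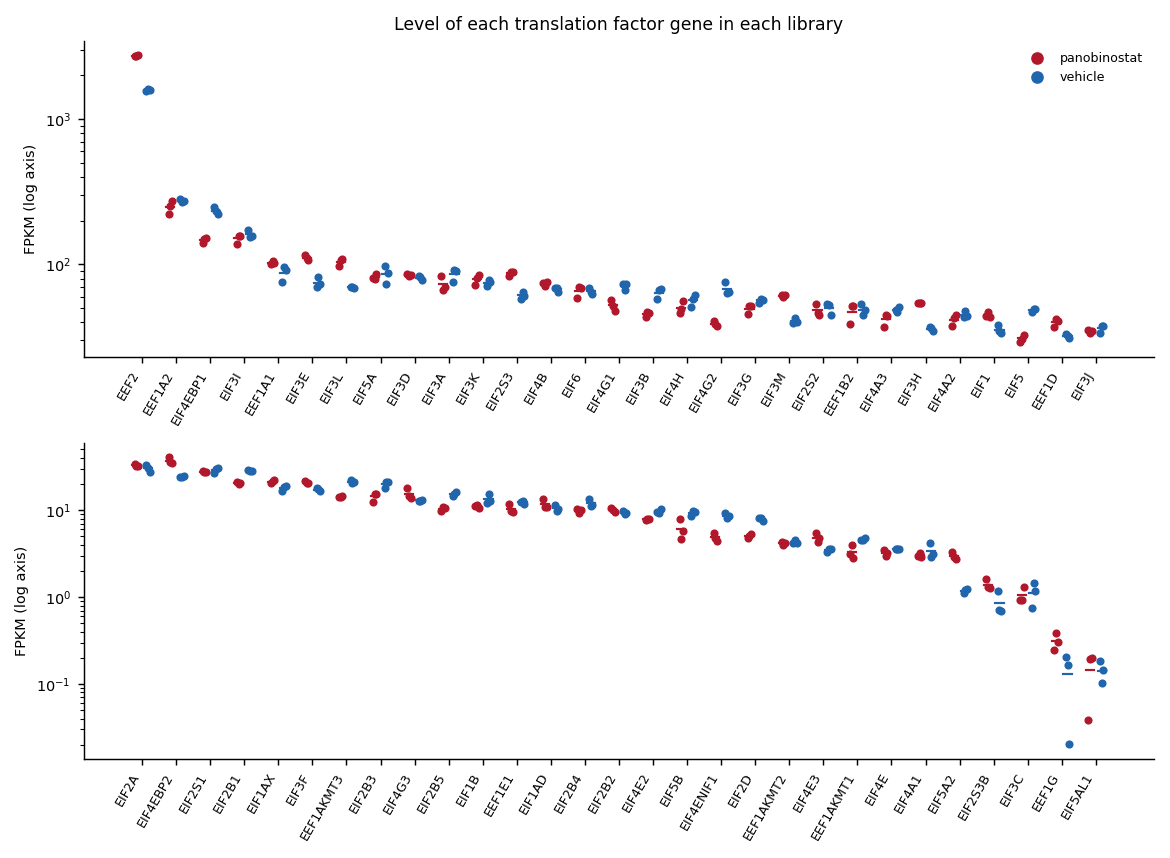
FPKM on a log axis for each of 58 tested factor genes, in order of mean level, with panobinostat libraries (red) left of vehicle libraries (blue) and a bar at each arm's mean. EEF2 stands at 2723 to 2762 FPKM with panobinostat and 1563 to 1625 FPKM with vehicle, far above every other gene drawn.

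Several levels are uncertain because reads were shared with another locus, judged on GENCODE 29 annotation. EEF1G overlapped AP002990.1 on the same strand over 99.9% of its exonic bases and held 0.312 FPKM in the panobinostat mean. EIF4A1 overlapped SENP3-EIF4A1 and other genes over 48.6% of its bases. Of the 50-base windows of EIF3C, 83.4% also occurred at another locus, and of EEF1A1's 22.1% did so, at 28 loci. EIF2S3B (26.8%) and EIF5AL1 (17.7%) resemble EIF2S3 (21%) and EIF5A (20.2%), and EEF1B2 (40.6%), EIF4B (31.7%) and EIF2S2 (22.6%) also shared windows. By a limit set after the values were seen, at least 15% of windows at another locus or of exonic bases in another gene on the same strand, 16 members were uncertain. These were the genes above with EEF1E1, EIF3CL, EIF3L, EIF4H and EIF6. Their levels beside other genes' are uncertain, and these shares do not measure by how much. The place of EEF1A1 (103 FPKM with panobinostat and 87.7 FPKM with vehicle) below EEF2 and EEF1A2 carries that uncertainty. Of the 44 tested members outside these 16, 10 rose (22.7%) and 25 fell (56.8%). Among all genes tested 33.7% rose and 31.5% fell, and among those of 100 CPM or more 22.7% and 48.1%. Of the 44, 18 fell with library size alone and 15 with upper quartile scaling.

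The eIF2 subunits and other initiator tRNA carriers moved in different directions, with 2 higher, 2 lower and 2 not past the test among 6 genes. Among all genes tested 33.7% were higher and 31.5% lower. EIF2S3, the gamma subunit that binds GTP and the tRNA, had 276, 296 and 299.8 CPM in panobinostat libraries A, B and C, against 208, 235 and 219.8 CPM in the vehicle libraries. CPM of single genes are scaled by TMM, and fold changes are on that scale. Every panobinostat library lay above every vehicle library, and the log2 fold change was 0.39 ± 0.07 (SE, adjusted p = 0.000245). EIF2S1, the alpha subunit phosphorylated by the eIF2 alpha kinases, had 152, 151 and 151 CPM with panobinostat and 156, 177 and 179 CPM with vehicle (-0.18 ± 0.07, adjusted p = 0.0468). Its call did not hold without panobinostat A, B or C or vehicle B or C (adjusted p = 0.0556, 0.124, 0.114, 0.129 and 0.167). The beta subunit EIF2S2 did not pass (-0.16 ± 0.09, adjusted p = 0.106). It passed without panobinostat A (-0.24, adjusted p = 0.0192) or vehicle C (-0.25, adjusted p = 0.0367).

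EIF2D, a factor that can deliver tRNA without GTP, fell to 37.0, 39.3 and 42.4 CPM with panobinostat, against 67.7, 67.9 and 63.5 CPM with vehicle. The arms were far apart, with a log2 fold change of -0.74 ± 0.08 (adjusted p = 1.31e-06). EIF2A, an alternative initiator tRNA carrier, had 135, 129 and 131 CPM with panobinostat and 139, 133 and 119.5 CPM with vehicle (0.01 ± 0.07, adjusted p = 0.909). EIF2S3B, a near copy of EIF2S3, had 3.71, 3.02 and 3.0 CPM with panobinostat and 2.96, 1.81 and 1.73 CPM with vehicle (0.59 ± 0.24, adjusted p = 0.0406). That call was lost without panobinostat A, B or C or vehicle B or C (adjusted p = 0.110, 0.0624, 0.0557, 0.142 and 0.163), and its reads can be shared with EIF2S3.

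Of the 5 genes of the eIF2B exchange factor 4 fell and 1 did not pass. Of all tested genes 31.5% fell, and of those of 100 CPM or more 48.1%. The eIF2B median was -0.57, against 0.01 over all tested genes and -0.17 over those of 100 CPM or more. No eIF2B gene averaged 100 CPM over both arms, so that set is not matched to them in level. The highest, EIF2B1, averaged 71.6 CPM with panobinostat and 107 CPM with vehicle. EIF2B5, the catalytic epsilon subunit, had 55.8, 62.5 and 61.9 CPM with panobinostat and 90.0, 95.4 and 102 CPM with vehicle (-0.67 ± 0.08, adjusted p = 3.00e-06). EIF2B1, the alpha subunit, had 73.0, 69.0 and 72.6 CPM with panobinostat and 108, 108 and 106 CPM with vehicle (-0.58 ± 0.07, adjusted p = 3.13e-06). EIF2B3, the gamma subunit, had 40.1, 50.7 and 51.6 CPM with panobinostat and 62.9, 74.8 and 74.7 CPM with vehicle (-0.57 ± 0.10, adjusted p = 0.000174). In each of these genes the arms were fully separate. EIF2B4, the delta subunit, had 53.2, 47.1 and 52.5 CPM with panobinostat and 74.3, 62.2 and 64.4 CPM with vehicle (-0.39 ± 0.09, adjusted p = 0.00109). The beta subunit EIF2B2 stood apart from these, with 55.0, 52.7 and 50.8 CPM with panobinostat and 55.5, 51.4 and 52.5 CPM with vehicle (-0.01 ± 0.08, adjusted p = 0.929). The 4 lower calls held under each of 16 alternatives, and EIF2B2 turned to 0.10 when scaled by library size alone and to 0.13 with upper quartile scaling.

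Of the 7 genes of start codon selection and subunit joining, 1 rose, 3 fell and 3 did not pass. The Y-linked member is among the 7, and its values are not given. The shares over all genes tested were 33.7% rising and 31.5% falling. EIF5, the GTPase activating partner of eIF2, had 238, 252 and 273 CPM with panobinostat and 410.2, 439.6 and 439.9 CPM with vehicle (-0.76 ± 0.07, adjusted p = 5.23e-07). EIF5B, the GTPase of subunit joining, had 60.1, 34.8 and 44.5 CPM with panobinostat and 69.8, 81.5 and 79.5 CPM with vehicle (-0.73 ± 0.14, adjusted p = 0.000343). Both were lower in each panobinostat library than in any vehicle library, although the 3 panobinostat values of EIF5B were spread widely. EIF1, which guards start codon fidelity, had 153, 164 and 154 CPM with panobinostat and 143, 132 and 128 CPM with vehicle (0.23 ± 0.07, adjusted p = 0.0119). EIF1B, its close relative, moved the other way, with 20.3, 21.2 and 19.6 CPM with panobinostat and 24.0, 30.4 and 25.2 CPM with vehicle (-0.39 ± 0.10, adjusted p = 0.0047). The call of EIF1 was lost without panobinostat B (adjusted p = 0.0699) or vehicle C (adjusted p = 0.0863), and that of EIF1B with upper quartile scaling (adjusted p = 0.0524). EIF1AX, the X-linked eIF1A, did not pass (0.12 ± 0.08, adjusted p = 0.193) but passed with library size alone, upper quartile scaling and limma (0.22 to 0.26, adjusted p = 0.00844 to 0.0227). EIF1AD, an eIF1A-like protein, did not pass either (0.04 ± 0.10, adjusted p = 0.728).

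Where 33.7% of all tested genes rose and 31.5% fell, the eIF3 genes gave 5 higher, 5 lower and 3 not past the test. Their median over the 13 tested was -0.05. The lower count rested on the scaling, with 2 lower by library size alone and 1 with upper quartile scaling or limma, and it was 3 without panobinostat B or among genes with a mean of 1 CPM. The genes that rose encode subunits that budding yeast eIF3 lacks. EIF3H had 334, 335 and 341 CPM with panobinostat and 245, 246 and 234 CPM with vehicle (0.48 ± 0.07, adjusted p = 1.79e-05). EIF3L had 399, 442 and 458 CPM with panobinostat and 308, 316 and 307 CPM with vehicle (0.48 ± 0.07, adjusted p = 4.11e-05). EIF3M had 441, 426 and 445 CPM with panobinostat and 305, 333 and 314 CPM with vehicle (0.46 ± 0.07, adjusted p = 3.53e-05). In all 3 genes the lowest panobinostat library exceeded the highest vehicle library. EIF3E had 667, 633 and 634 CPM with panobinostat and 435, 512 and 458 CPM with vehicle (0.46 ± 0.08, adjusted p = 9.61e-05). EIF3F rose by a smaller step, with 194, 187 and 188 CPM with panobinostat and 174, 171 and 163 CPM with vehicle (0.16 ± 0.07, adjusted p = 0.0455). Its call was lost without panobinostat A, B or C or vehicle B or C (adjusted p = 0.0732, 0.0943, 0.0875, 0.0866 and 0.207). EIF3L shares 41.1% of its exonic bases with AL022311.1 on the same strand.

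EIF3B, the scaffold subunit that holds the eIF3 core together, fell the most, with 373, 404 and 406 CPM with panobinostat and 539, 629 and 634 CPM with vehicle (-0.61 ± 0.08, adjusted p = 1.04e-05). EIF3A, the large subunit, had 569, 456 and 485 CPM with panobinostat and 552, 678 and 674 CPM with vehicle (-0.34 ± 0.10, adjusted p = 0.00716). Its arms overlapped, since panobinostat A lay above vehicle A, and the call was lost without panobinostat B (adjusted p = 0.0505). EIF3G (-0.30 ± 0.08, adjusted p = 0.00323), EIF3I (-0.21 ± 0.08, adjusted p = 0.0241) and EIF3J (-0.19 ± 0.07, adjusted p = 0.0347) also fell. The call of EIF3I was lost without panobinostat A (adjusted p = 0.0746) or vehicle A (adjusted p = 0.0551). The call of EIF3J was lost without panobinostat B or C or vehicle B or C (adjusted p = 0.142, 0.0764, 0.102 and 0.121). EIF3C (-0.21 ± 0.21, adjusted p = 0.414), EIF3D (-0.05 ± 0.07, adjusted p = 0.517) and EIF3K (-0.04 ± 0.08, adjusted p = 0.713) did not pass.

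After these values were seen, the subunits were divided by whether budding yeast eIF3 has them. Of the 5 that it has (EIF3A, EIF3B, EIF3C, EIF3G and EIF3I) 4 fell and none rose, with a median of -0.30. Of the 7 that it lacks (EIF3D, EIF3E, EIF3F, EIF3H, EIF3K, EIF3L and EIF3M) 5 rose and none fell, with a median of 0.46. With upper quartile scaling the calls of EIF3A, EIF3G and EIF3I were lost and EIF3D and EIF3K turned to 0.09 and 0.10. EIF3B stayed lower and the 5 rising genes stayed higher. The grouping followed the values and has no test. Summed over subunits, the eIF3 genes came to 856 to 884 FPKM with panobinostat and 786 to 819 FPKM with vehicle. FPKM are scaled by column total and not by TMM, as the calls are. With TMM factors of 1.0282 to 1.0461 with panobinostat and 0.9562 to 0.9714 with vehicle, a net rise on the scale of the calls is not shown.

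**Figure D3:**
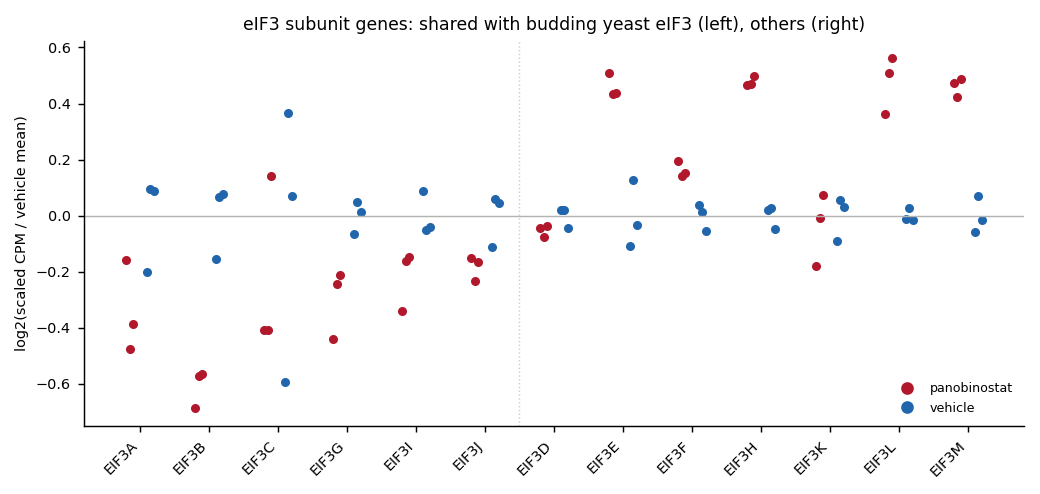
Scaled CPM of each eIF3 subunit gene in each library, as log2 of the ratio to the vehicle mean, with panobinostat (red) left of vehicle (blue) and 3 libraries per arm. Subunits left of the dotted line occur in budding yeast eIF3 (EIF3J as a loosely bound partner) and those right of it do not. Panobinostat libraries of EIF3B, EIF3G, EIF3I and EIF3J lie below all vehicle libraries, and those of EIF3E, EIF3F, EIF3H, EIF3L and EIF3M above them.

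Of the 10 genes of the cap-binding complex 1 rose, 6 fell (60%) and 3 did not pass, with a median of -0.27, where 31.5% of all genes tested and 48.1% of those of 100 CPM or more fell. With library size alone, upper quartile scaling or limma, and without panobinostat B, 3 of the 10 were lower (EIF4E2, EIF4G1 and EIF4G2). EIF4G2, a scaffold related to eIF4G that does not bind the cap-binding protein, had 339, 324 and 317 CPM with panobinostat and 675, 577 and 581 CPM with vehicle (-0.90 ± 0.08, adjusted p = 1.41e-07). EIF4G1, the main scaffold, had 451, 412 and 383 CPM with panobinostat and 621, 576 and 629 CPM with vehicle (-0.55 ± 0.08, adjusted p = 2.03e-05). Its relative EIF4G3 had 164, 134 and 128 CPM with panobinostat and 127, 129 and 131 CPM with vehicle (0.14 ± 0.09, adjusted p = 0.187). Of the 3 scaffolds EIF4G3 alone had overlapping arms. It passed with library size alone (0.25, adjusted p = 0.0239) and with upper quartile scaling (0.27, adjusted p = 0.0128).

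EIF4E, the cap-binding protein, had 46.6, 40.1 and 43.6 CPM with panobinostat and 52.0, 53.4 and 52.0 CPM with vehicle (-0.27 ± 0.08, adjusted p = 0.00813). EIF4E2, a repressive cap-binding homologue, had 53.2, 55.2 and 55.0 CPM with panobinostat and 71.0, 69.3 and 78.1 CPM with vehicle (-0.42 ± 0.08, adjusted p = 0.00021). EIF4E3, a further cap-binding homologue, had 56.6, 44.2 and 49.7 CPM with panobinostat and 36.4, 40.5 and 40.0 CPM with vehicle (0.36 ± 0.10, adjusted p = 0.00406). So EIF4E and EIF4E2 were lower and EIF4E3 higher in every panobinostat library. The call of EIF4E was lost without panobinostat B (adjusted p = 0.0622) and with upper quartile scaling (adjusted p = 0.155). The helicase EIF4A1 did not pass (-0.26 ± 0.13, adjusted p = 0.0944), except without vehicle B (-0.37, adjusted p = 0.0308). Its relative EIF4A2 had 220.2, 251 and 267 CPM with panobinostat and 275, 306 and 283 CPM with vehicle (-0.23 ± 0.08, adjusted p = 0.0241). That call was lost without panobinostat A or B or vehicle B (adjusted p = 0.0833, 0.0537 and 0.0919).

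EIF4B and EIF4H stimulate the helicase. EIF4B had 437, 417 and 453 CPM with panobinostat and 435, 445 and 412 CPM with vehicle (0.02 ± 0.07, adjusted p = 0.846). EIF4H had 141, 150.2 and 174 CPM with panobinostat and 168, 194 and 206 CPM with vehicle (-0.29 ± 0.09, adjusted p = 0.0127). The EIF4H arms overlapped, and its call was lost without panobinostat B (adjusted p = 0.0523) or vehicle C (adjusted p = 0.0714). EIF4A3, a helicase of the same family that sits in the exon junction complex, had 178, 214 and 214 CPM with panobinostat and 248, 245 and 265 CPM with vehicle (-0.32 ± 0.08, adjusted p = 0.00299), a call lost with upper quartile scaling (adjusted p = 0.061).

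EIF4EBP1 and EIF4EBP2 block the contact of EIF4E with the scaffold, and with EIF4ENIF1 they make up the eIF4E-binding proteins. Of these 1 rose and 2 fell, where 33.7% of all genes tested rose and 31.5% fell. EIF4EBP1 had 145, 153 and 157 CPM with panobinostat and 277, 263 and 248 CPM with vehicle (-0.79 ± 0.07, adjusted p = 2.37e-07). EIF4EBP2 had 283, 251 and 247 CPM with panobinostat and 182, 182 and 189 CPM with vehicle (0.50 ± 0.07, adjusted p = 3.22e-05). The arms were separate for both genes, in opposite directions. EIF4ENIF1, the carrier that takes EIF4E into the nucleus, had 32.1, 27.7 and 25.9 CPM with panobinostat and 58.6, 51.3 and 54.6 CPM with vehicle (-0.94 ± 0.09, adjusted p = 6.22e-07). These 3 calls held under each of 16 alternatives. Summed, the 3 genes came to 187 to 189.9 FPKM with panobinostat and 255 to 284 FPKM with vehicle.

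The eIF5A genes encode the factor that carries hypusine and helps the ribosome past stalling stretches. EIF5A2, the isoform usually scarce outside testis and brain and raised in some cancers, had 17.6, 15.6 and 14.9 CPM with panobinostat and 6.42, 7.02 and 7.28 CPM with vehicle. The arms were fully separate, and the 1.21 ± 0.12 log2 fold change (adjusted p = 7.02e-07) was 2.31-fold. EEF1G, on few counts, came as high (1.2 ± 0.50). EIF5A, the common isoform, had 217, 215 and 235 CPM with panobinostat and 283, 218 and 258 CPM with vehicle (-0.19 ± 0.09, adjusted p = 0.0808). It passed without vehicle B (-0.29, adjusted p = 0.00891) and with no filter on low counts (-0.22, adjusted p = 0.04). Even with panobinostat EIF5A2 (2.97 ± 0.278 FPKM) stayed far under EIF5A (81.9 ± 3.24 FPKM). EIF6, which keeps the large subunit from joining early, did not pass (-0.10 ± 0.08, adjusted p = 0.310).

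In elongation, EEF2 was the most abundant factor gene by assigned counts, and it rose. EEF2 had 10569, 10512 and 10835 CPM in panobinostat libraries A, B and C, against 6487, 6852 and 6649 CPM in the vehicle libraries. Every panobinostat library lay far above every vehicle library, with a log2 fold change of 0.68 ± 0.07 (1.60-fold, adjusted p = 1.03e-06). The call held under each of 16 alternatives, with values of 0.64 to 0.81. EEF2's exons overlap 1 small nucleolar RNA, SNORD37, over 0.695% of their bases.

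The eEF1 genes gave 2 higher, 2 lower and 2 not past the test, and EEF1G was among the higher ones. Over all genes tested 33.7% were higher and 31.5% lower. EEF1A1, the main tRNA carrier, had 576, 602 and 593 CPM with panobinostat and 464, 600.4 and 567 CPM with vehicle (0.12 ± 0.09, adjusted p = 0.257). It passed with library size alone (0.23, adjusted p = 0.0276) and with upper quartile scaling (0.26, adjusted p = 0.0191). Without vehicle A, its lowest library, the value was 0.01 (adjusted p = 0.928). EEF1A2, the isoform of neurons and muscle, had 429.6, 485 and 538 CPM with panobinostat and 583, 564 and 575 CPM with vehicle (-0.24 ± 0.08, adjusted p = 0.0179). The EEF1A2 call was lost without panobinostat A (adjusted p = 0.0579) or B (adjusted p = 0.0531). EEF1D, an exchange subunit, had 335, 379 and 373 CPM with panobinostat and 322, 315 and 307 CPM with vehicle (0.20 ± 0.07, adjusted p = 0.0231). Its call was lost without panobinostat B or C or vehicle B or C (adjusted p = 0.116, 0.0797, 0.0605 and 0.108). EEF1B2, the other exchange subunit, did not pass (-0.15 ± 0.11, adjusted p = 0.219).

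EEF1E1, a scaffold of the tRNA synthetase complex, had 23.8, 20 and 19.7 CPM with panobinostat and 27.1, 28.4 and 25.7 CPM with vehicle (-0.36 ± 0.10, adjusted p = 0.00541), a call lost with upper quartile scaling (adjusted p = 0.0659). EEF1G had 0.642, 1.01 and 0.804 CPM with panobinostat and 0.577, 0.468 and 0.0578 CPM with vehicle (1.2 ± 0.50, adjusted p = 0.0457). Its call was lost without panobinostat B or C or vehicle B or C (adjusted p = 0.148, 0.0791, 0.0587 and 0.210), as it was with no filter (adjusted p = 0.0549), and without vehicle C the log2 fold change was 0.66. Almost all of its exonic bases lie in AP002990.1 as well. The lysine methyltransferases of eEF1A gave 2 lower and 1 not past the test, where 31.5% of all genes tested were lower. EEF1AKMT3 had 42.8, 42.6 and 44.8 CPM with panobinostat and 72.9, 68.6 and 69.5 CPM with vehicle (-0.69 ± 0.07, adjusted p = 1.21e-06). EEF1AKMT1 had 4.0, 5.09 and 3.64 CPM with panobinostat and 6.28, 6.32 and 6.70 CPM with vehicle (-0.60 ± 0.17, adjusted p = 0.00542). EEF1AKMT2 did not pass (-0.17 ± 0.10, adjusted p = 0.153).

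Ratios of related genes within a library do not depend on how libraries are scaled, and 11 pairs were compared as log2 ratios of FPKM. In 8 pairs the arms did not overlap, with an exact two-sided permutation p of 0.1, the smallest that 3 libraries against 3 allow, and 0.138 after adjustment over the pairs. No pair can therefore pass at 0.05. Single genes had separate arms in scaled CPM in 35.5% (higher) and 33.4% (lower) of all tested genes. Ratios of other gene pairs were not counted, so the 8 of 11 are not read as particular to these pairs. EIF4EBP2 over EIF4EBP1 averaged -1.98 ± 0.17 with panobinostat and -3.27 ± 0.11 with vehicle (SD, n = 3 each, exact p = 0.1), a difference of 1.29. EIF5A2 over EIF5A averaged -4.79 ± 0.18 with panobinostat and -6.18 ± 0.26 with vehicle, a difference of 1.39. In both pairs the lowest panobinostat ratio lay above the highest vehicle ratio. EIF4G3 over EIF4G1 differed by 0.68, EIF4E3 over EIF4E by 0.63, EIF1B over EIF1 by -0.60, EEF1A2 over EEF1A1 by -0.38, EIF4G2 over EIF4G1 by -0.35 and EIF4H over EIF4B by -0.31. EIF4A2 over EIF4A1 (0.02, exact p = 1.0), EIF4A3 over EIF4A1 (-0.08, exact p = 0.8) and EIF4E2 over EIF4E (-0.14, exact p = 0.3) overlapped between arms. Ratios with EEF1A1, EIF4A1, EIF4B, EIF4H or EIF5A carry the uncertainty of those counts, the EIF5A2 over EIF5A pair included.

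**Figure D4:**
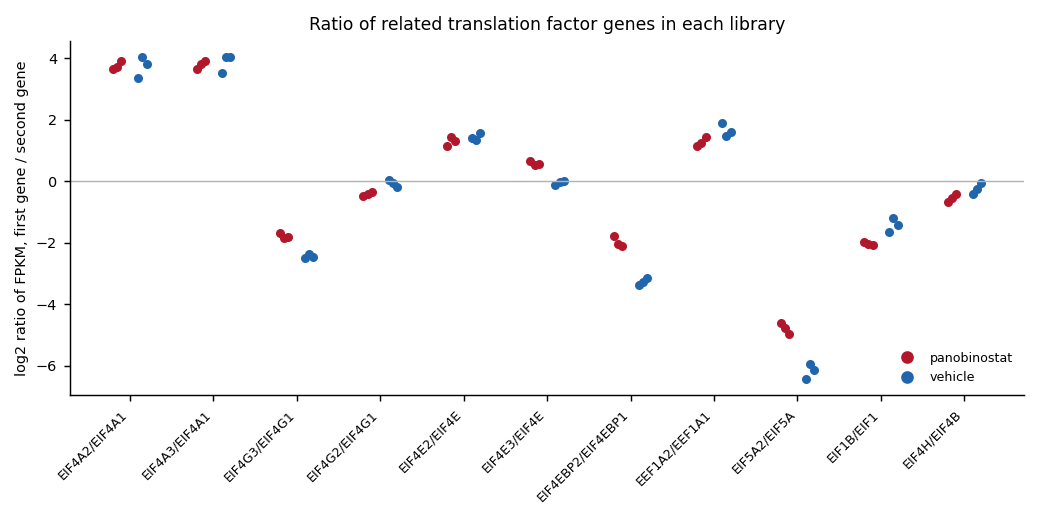
Log2 ratio of FPKM of related factor genes in each library, with panobinostat (red) left of vehicle (blue) and 3 libraries per arm. EIF4EBP2 over EIF4EBP1, EIF5A2 over EIF5A, EIF4G3 over EIF4G1 and EIF4E3 over EIF4E lie higher with panobinostat, and the EIF4A pairs overlap.

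Sequences at the annotated starts were read from RefSeq (GRCh38.p14), which matched 48 members with 65 windows of 35116 in all. No window was matched for EEF1A2, EEF1AKMT1, EEF1AKMT3, EEF1D, EIF2S2, EIF3A, EIF3CL, EIF3E, EIF3G, EIF3H, EIF3L and EIF4EBP1. The 40-base windows run from 25 bases before the annotated start to 15 bases from the start on. The sets are examples picked by call and start together, so they do not show how call and start relate. EEF1B2, EIF2A, EIF2S3B, EIF3K and EIF4B have a pyrimidine start and are not shown. EEF1G, EIF1, EIF4E3 and EIF4EBP2 rose with another start and are not shown. The first set shows members that rose or did not pass and whose start is a C followed by at least 4 pyrimidines. That is the shape of a 5' terminal oligopyrimidine tract. Capitals mark the start base and the pyrimidine run.
EEF2 (chr19:3985449-3985488, minus strand): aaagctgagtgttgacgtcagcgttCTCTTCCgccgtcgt
EIF2S3 (chrX:24054931-24054970, plus strand): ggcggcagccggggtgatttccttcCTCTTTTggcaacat
EIF3F (chr11:7987312-7987351, plus strand): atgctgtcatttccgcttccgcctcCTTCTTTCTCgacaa
EIF3M (chr11:32583806-32583845, plus strand): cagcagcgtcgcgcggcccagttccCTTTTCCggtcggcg
EEF1A1 (chr6:73521018-73521057, minus strand): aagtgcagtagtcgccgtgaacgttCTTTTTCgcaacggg
EIF3D (chr22:36529152-36529191, minus strand): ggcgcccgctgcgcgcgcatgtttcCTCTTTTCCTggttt
A second set shows starts of members that fell or, for EIF5A2, rose, and that lack such a run; the capital marks the start base, and EIF4G2 and EIF5 are shown at 1 of their 2 annotated starts.
EIF4G2 (chr11:10807982-10808021, minus strand): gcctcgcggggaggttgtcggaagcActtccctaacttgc
EIF5 (chr14:103334212-103334251, plus strand): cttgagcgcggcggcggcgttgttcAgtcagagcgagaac
EIF2B5 (chr3:184135333-184135372, plus strand): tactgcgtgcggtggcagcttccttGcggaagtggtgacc
EIF3B (chr7:2354802-2354841, plus strand): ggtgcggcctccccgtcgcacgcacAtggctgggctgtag
EIF4ENIF1 (chr22:31489828-31489867, minus strand): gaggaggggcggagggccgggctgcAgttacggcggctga
EIF5A2 (chr3:170908623-170908662, minus strand): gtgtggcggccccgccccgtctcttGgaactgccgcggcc
EIF2D and EIF4A2 are the 2 falling members with a pyrimidine start.
EIF2D (chr1:206612451-206612490, minus strand): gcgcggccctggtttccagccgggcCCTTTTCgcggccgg
EIF4A2 (chr3:186783552-186783591, plus strand): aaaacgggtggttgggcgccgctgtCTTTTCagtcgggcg

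The rule for a pyrimidine start was set after the sequences had been seen, so the counts have no test. Of the 13 members with such a start 5 rose (EEF2, EIF2S3, EIF2S3B, EIF3F and EIF3M), 2 fell and 6 did not pass, with a median of 0.02. The 5 became 3, without EIF2S3B and EIF3F, when panobinostat A, B or C or vehicle B or C was left out. Of the 35 with another start 5 rose (EEF1G among them), 19 fell and 11 did not pass, with a median of -0.21. Among those that averaged 100 CPM or more, 4 of 10 rose and 1 fell with a pyrimidine start, against 2 of 14 risen and 9 fallen with another start. Among other genes of that abundance, 23.0% of 187 with a pyrimidine start rose and 40.6% fell, against 21.0% and 50.2% of 1703 with another start. Cytosolic ribosomal protein genes rose with either start, 38 of 47 with a pyrimidine start (median 0.62) and 15 of 16 with another (median 0.50). General knowledge lists 11 members as 5' terminal oligopyrimidine mRNAs (EEF1A1, EEF1B2, EEF1D, EEF1G, EEF2, EIF3A, EIF3E, EIF3F, EIF3G, EIF3H and EIF4B). Of these 6 rose, 2 fell and 3 did not pass (median 0.16), against 8, 25 and 15 of the other 48 (median -0.21), and without EEF1G 5 of 10 rose. The rises came to 3 (EEF2, EIF3E and EIF3H) with no filter and without panobinostat B or C or vehicle B or C, since EEF1D, EEF1G and EIF3F were then not called.

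**Figure D5:**
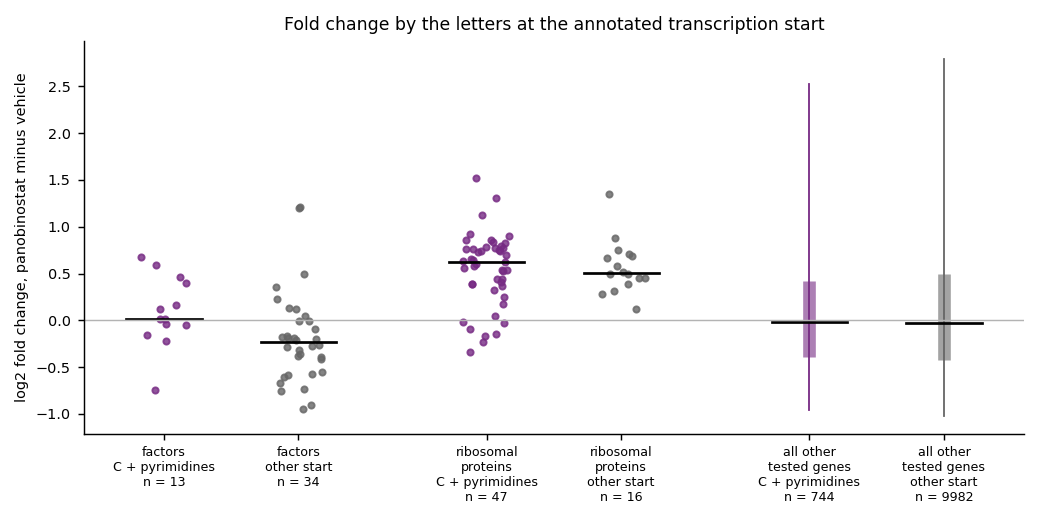
Log2 fold change of factor genes, ribosomal protein genes and all other tested genes, by whether an annotated start is a C followed by at least 4 pyrimidines; points are genes, wide bars span the interquartile range, thin lines run between percentiles 5 and 95, and black bars are medians. Factor genes have medians of 0.02 and -0.21 and ribosomal protein genes 0.62 and 0.50. The Y-linked factor gene is not drawn, so 34 are shown with another start.

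Promoter motifs were counted on both strands in 300-base windows (250 bases before to 50 after the start). The E-box CACGTG occurred in 15.4% of member windows, 7.26% of all windows and 9.23% of windows of tested genes, in EIF1B, EIF2B3, EIF3F, EIF3K, EIF4A3, EIF4B, EIF4E, EIF4G1, EIF4H and EIF5A2. The GC box GGGCGG occurred in 70.8%, 45% and 64.8%, the ETS-type core GGAAG in 73.8%, 71.9% and 74.7%, and CCAAT in 36.9%, 34.6% and 34.6%. TGATGNAA, the amino acid response type, occurred in 1.54%, 3.62% and 2.01%, and EIF4E3 was the member that held it. Stretches of EEF2 (most abundant by assigned counts), EIF5A2, which rose, and EIF4G1, which fell, run from 250 bases before to 15 bases from the start on. Matches to these motifs are in capitals (CCGCCC and CTTCC are the other strand).
EEF2 (chr19:3985449-3985713, minus strand): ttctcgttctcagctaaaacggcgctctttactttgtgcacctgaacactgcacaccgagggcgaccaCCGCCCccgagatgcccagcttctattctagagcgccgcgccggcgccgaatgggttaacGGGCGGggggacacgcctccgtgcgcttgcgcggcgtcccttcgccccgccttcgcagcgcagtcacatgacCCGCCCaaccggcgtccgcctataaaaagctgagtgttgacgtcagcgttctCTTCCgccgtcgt
EIF5A2 (chr3:170908623-170908887, minus strand): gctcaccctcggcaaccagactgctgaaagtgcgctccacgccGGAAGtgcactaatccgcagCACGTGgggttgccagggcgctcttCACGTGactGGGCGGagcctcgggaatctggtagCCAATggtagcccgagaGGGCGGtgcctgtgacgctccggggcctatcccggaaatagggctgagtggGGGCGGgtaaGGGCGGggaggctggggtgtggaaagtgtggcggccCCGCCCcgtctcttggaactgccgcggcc
EIF4G1 (chr3:184314356-184314620, plus strand): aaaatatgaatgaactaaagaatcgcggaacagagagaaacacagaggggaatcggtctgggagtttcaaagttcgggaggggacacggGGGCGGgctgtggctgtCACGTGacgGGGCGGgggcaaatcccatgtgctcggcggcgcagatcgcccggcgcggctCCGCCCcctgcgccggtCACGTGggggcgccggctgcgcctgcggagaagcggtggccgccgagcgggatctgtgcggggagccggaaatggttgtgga
The EEF2 stretch holds 3 GGGCGG and 1 GGAAG. The EIF5A2 stretch holds 5 GGGCGG, 2 CACGTG, 1 GGAAG and 1 CCAAT. The EIF4G1 stretch, the first of 3 annotated, holds 3 GGGCGG and 2 CACGTG. The EEF2 stretch and the other annotated EIF4G1 stretches hold 0 CACGTG. By call, CACGTG occurred in 2 of 13 windows of rising members (15.4%), 6 of 27 of falling ones (22.2%) and 2 of 25 of those that did not pass (8.0%). In the same order GGAAG occurred in 92.3, 70.4 and 68.0%, and GGGCGG in 76.9, 70.4 and 68.0%. CCAAT occurred in 46.2, 29.6 and 40.0%, and TGATGNAA in 7.69, 0.0 and 0.0%. From 100 bases before to 50 after the start, CACGTG occurred in 7.69% of member windows and 5.66% of windows of tested genes. By call that was 1 of 13, 3 of 27 and 1 of 25 windows. A match is a description of the letters alone, and a link with the calls was not tested.

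Genes that work beside the factors, listed with earlier results of these data known, were counted in the same fit, in which 33.7% of all genes rose and 31.5% fell (22.7% and 48.1% of those of 100 CPM or more). Of the 7 relatives left out by symbol 2 rose, 3 fell and 2 did not pass (median -0.16). The eIF2 alpha kinase PKR, EIF2AK2, had 74.2, 70.6 and 71.8 CPM with panobinostat and 129, 142 and 143 CPM with vehicle (-0.93 ± 0.07, adjusted p = 4.13e-08). The kinase PERK of the endoplasmic reticulum, EIF2AK3, had 114, 109 and 115 CPM with panobinostat and 71.3, 78.1 and 73.2 CPM with vehicle (0.60 ± 0.07, adjusted p = 3.43e-06). The eIF2 alpha kinases thus moved in different directions, with EIF2AK4 (GCN2) at -0.50 ± 0.07 (adjusted p = 3.19e-05) and EIF2AK1 (HRI) at -0.49 ± 0.08 (adjusted p = 6.82e-05). EEFSEC, the selenocysteine elongation factor, rose (0.51 ± 0.11, adjusted p = 0.000746). Of 19 tested eIF2 alpha phosphatases and stress targets 6 rose, 6 fell and 7 did not pass (median -0.03), with ASNS, asparagine synthetase, at 0.84 ± 0.08, DDIT3 (CHOP) at 0.71 ± 0.13, VLDLR at -0.69 ± 0.11 and the adaptor NCK2 at -0.68 ± 0.07 past the test. The transcription factor ATF4 did not pass (-0.02 ± 0.08, adjusted p = 0.813).

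Of 19 genes of mTORC1 and S6 kinase control 5 rose (26.3%), 11 fell (57.9%) and 3 did not pass (median -0.26). Without vehicle C 2 rose and 7 fell, without panobinostat B 7 fell, without panobinostat A or vehicle B 3 rose, and 7 fell with library size alone, upper quartile scaling or limma. CYFIP1, a partner of EIF4E at FMRP, had 52.1, 53.1 and 55.6 CPM with panobinostat and 189, 183 and 189 CPM with vehicle (-1.80 ± 0.07, adjusted p = 3.42e-11). The mTORC1 subunits AKT1S1 (-0.88 ± 0.12) and RPTOR (-0.79 ± 0.08) and the inhibitor TSC2 (-0.68 ± 0.09) fell too. Of 17 poly(A)-binding proteins and cap partners 2 rose (11.8%), 10 fell (58.8%) and 5 did not pass (median -0.29); 4 rose when scaled by library size or upper quartile, and 1 without vehicle C. PAIP2B, a repressor of poly(A)-binding protein, had 16.3, 13.0 and 11.4 CPM with panobinostat and 1.66, 2.69 and 2.31 CPM with vehicle (2.58 ± 0.19, adjusted p = 2.81e-08). The helicase DDX3X (-0.94 ± 0.10), NCBP3 (-0.77 ± 0.09) and PABPN1 (-0.71 ± 0.09) fell. Of 9 genes of termination, recycling and rescue 1 rose (11.1%), 7 fell (77.8%) and 1 did not pass (median -0.29), among them the recycling ATPase ABCE1 (-0.77 ± 0.07), TCF25 (-0.64 ± 0.08), NEMF (-0.61 ± 0.07) and the release factor ETF1 (-0.30 ± 0.07). With library size alone, upper quartile scaling or limma 4 of the 9 fell.

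Of 9 enzymes that make hypusine on eIF5A or diphthamide on eEF2, 3 rose, 4 fell and 2 did not pass, with a median of 0.05 and a mean of -0.18; 5 rose with upper quartile scaling or limma. DOHH, the hydroxylase that completes hypusine, had 10.9, 16.5 and 15.1 CPM with panobinostat and 25.5, 24.0 and 25.7 CPM with vehicle (-0.81 ± 0.13, adjusted p = 5.30e-05). DPH2 (-0.73 ± 0.09), DPH7 (-0.73 ± 0.09) and DPH1 (-0.44 ± 0.10) of the diphthamide pathway fell. Of 11 mitochondrial translation factors 2 rose, 5 fell and 4 did not pass, with a median of 0.06 and a mean of -0.05. When scaled by library size or upper quartile 6 rose and 2 fell, and without vehicle C 0 rose. TSFM, the mitochondrial exchange factor, fell (-0.50 ± 0.08), as did C12orf65 (-0.32 ± 0.07) and MTRF1 (-0.30 ± 0.09), and MTRF1L rose (0.38 ± 0.14, adjusted p = 0.0292). The MTRF1L call was lost without panobinostat B or C or vehicle B or C (adjusted p = 0.0841, 0.102, 0.0849 and 0.107). The MTRF1 call was lost with library size alone (adjusted p = 0.0717), and that of DPH1 with limma on unfiltered FPKM (adjusted p = 0.065). Of 79 cytosolic ribosomal protein genes 68 rose, 2 fell and 9 did not pass (median 0.56), a difference from the factor genes that was not tested.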

How the data were processed

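RNA of 6 libraries labelled HT1197 was sequenced, 3 per arm, grouped by their labels. Gene counts were deposited by the authors. The file header gives featureCounts 1.5.0-p3, and the submitters' processing notes give 1.5.1 beside Novoalign 2.8, Subread and hg38. The header's command used strand option 2, Ensembl 84 genes and the largest overlap, and set nothing for reads that map to several places. It names 9 alignment files, and 6 are columns here. The deposited FPKM values are the authors' own, scaled by column total. They served to compare levels between genes.

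Symbols and GRCh38 coordinates came from GENCODE 29 (22459 of 22718 identifiers), a later release than the one used for counting. Genes kept by edgeR's filterByExpr (minimum count 10, minimum total 15) were scaled by TMM and fitted with edgeR 4.0.16 in R 4.3.3 (quasi-likelihood, panobinostat minus vehicle), with p adjusted by Benjamini-Hochberg over 16084 genes. The SE is the log2 fold change divided by the square root of F. The steps were run on simulated counts in which few genes changed, at random in either direction. Far more genes were called in these data, so that run does not test the scaling. Alternatives changed the tool (DESeq2 1.42.0), the scaling (relative log expression, upper quartile, library size alone), the filter (none, or a mean of 1 CPM) and the threshold (0.01), blocked by letter, dropped each library in turn, or used limma 3.58.1 on log2(FPKM + 1) with and without a filter at 1 FPKM and on log2(FPKM + 0.1). The count of 16 alternatives leaves out the threshold of 0.01 and a fit without library A in both arms, added after seeing the data. Counting floors of 3 counts cover counting error only.

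Members, lists and alternatives were chosen with earlier results of these data known. In each role group or list, up to 4 genes past the test were named, by size of change at 1 CPM or above, with members of gene pairs, the 5 most abundant members, members that did not pass beside others that did, and, chosen after their values were seen, EIF2AK1 and ATF4. Per-gene values are not given for 1 Y-linked member.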

Additional observations from a re-analysis of the deposited data

How the results depend on the processing

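Of the 41 members past the test, 24 kept call and direction under each of 16 alternatives, 9 higher and 15 lower, and none of the 41 reversed. The number higher was 9 at an adjusted p of 0.01 and 9 to 14 with a library left out, where 9 came without panobinostat B or vehicle C. The number lower was 15 with upper quartile scaling, 17, 15 and 16 with limma on log2(FPKM + 1) filtered, on log2(FPKM + 1) unfiltered and on log2(FPKM + 0.1), and 20 to 26 with a library left out. Library size alone moved the median of all genes by 0.11 and upper quartile scaling by 0.14. With these, 39.4% and 40.8% of all genes were higher and 25.2% and 23.8% lower, and 17 members were higher with each. With the letter as a replicate block 12 members were higher and 26 lower, without the calls of EEF1G, EIF2S1 and EIF3F. With library size alone the calls of EEF1A2, EIF2S1, EIF3A, EIF3I, EIF3J, EIF4A2, EIF4E and EIF4H were lost, and with upper quartile scaling also those of EEF1E1, EIF1B, EIF3G and EIF4A3. DESeq2 did not call EEF1G, EIF2S1 and EIF2S3B, and without a filter EEF1D, EEF1G and EIF3F were not called. Deviations from the arm means correlated at 0.103 (A), -0.035 (B) and 0.158 (C) between same-letter libraries. Between libraries of different letters in the 2 arms they correlated at -0.157 to 0.059. Values this weak, from 3 libraries per arm, do not settle whether the letters pair the samples. Members that did not pass and changed sign were EIF2B2 (0.10 with library size, 0.13 with upper quartile, 0.02 at a mean of 1 CPM, 0.09, 0.09 and 0.10 with limma, -0.04 to 0.02 with a library left out), EIF3D (0.06, 0.09 and, with limma, 0.06), EIF3K (0.08, 0.10, 0.07 with limma, -0.09 to 0.03 with a library left out), EIF6 (0.01, 0.04 and 0.01 with limma), EIF5AL1 (0.11, 0.13 and -0.32 to 0.38), EIF2A (-0.02 without a filter and -0.06 to 0.05), EIF4B (-0.01 without a filter and -0.02 to 0.05), EIF1AD (-0.05 to 0.09) and EIF3C (-0.42 to 0.01). The cause was not tested. Without library A in both arms, chosen after seeing the data, EEF1B2, EIF5AL1 and EIF6 changed sign (0.03, 0.56 and 0.02). Without the 16 members whose reads can be shared, also chosen after seeing the data, 10 were higher and 25 lower of 44. The shares were 22.7% and 56.8%, against 33.7% and 31.5% of all genes tested. EIF3CL held 0 to 3 counts per library, at or under the floor of 3 counts, so a difference was not detectable, and EIF5AL1 (2 to 14 counts) and EEF1G (1 to 17) rest on few counts.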

Other observations

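Reads assigned to annotated pseudogenes of the factors were counted. The 24 pseudogene rows of EEF1A1 held 1703, 2241 and 2387 counts in panobinostat libraries A, B and C, against 2771, 2174 and 2120 in the vehicle libraries. That was 21.1, 22.0 and 21.6% of the EEF1A1 counts with panobinostat and 43.1, 21.2 and 21.6% with vehicle, so vehicle A stood apart from the other libraries. The 4 pseudogene rows of EEF1B2 held 11.4, 8.33 and 7.5% of its counts with panobinostat and 7.67, 17.3 and 17.9% with vehicle, and there vehicle A was the lowest of its arm. The rows of EIF4B held 1.78 to 2.2% with panobinostat and 1.80 to 1.97% with vehicle.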
